A study of Rattus norvegicus with 7 samples.

Results

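The transcriptomes described here are those of 4 control cultures of rat oligodendrocyte progenitor cells, taken by their label out of a series of 7 libraries. The cells came from the brains of wild-type rats at postnatal day 7 and were transfected with a control siRNA (Lipofectamine RNAiMAX) while being moved to differentiating medium. RNA was collected after 4 to 5 days, so all 4 cultures carry an siRNA and none is untransfected. The other 3 libraries received an siRNA against the retroviral sequence RNLTR12-int and are not used below. The labels number the control libraries as biological replicates 1 to 4 without naming an animal, litter or day, so their spread may in part be technical.

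Oligodendrocytes are the cells that wrap central axons in myelin. Their progenitors, marked by the receptor Pdgfra and the proteoglycan Cspg4, leave the cell cycle, pass through a short-lived stage marked by Gpr17 and Bcas1, and then switch on myelin proteins and the lipid synthesis that membrane wrapping needs. Sox10 and Olig1 act as transcription factors throughout the lineage, and Mbp encodes myelin basic protein, which compacts the myelin sheath. Cultures prepared from postnatal brain can also hold astrocytes and microglia, so the transcripts of those cells were followed beside those of the lineage.

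All 3 lineage markers were abundant in every library, but only 1, Olig1, had a highest library less than 2 times its lowest. Values are the authors' normalised counts, that is reads scaled by 1 size factor per library, given for replicates 1 to 4 in that order. Olig1 stood at 28784, 27410, 40714 and 42062, ranked 83rd of 32852 genes by its mean of 34743 ± 7714 (SD, n = 4), and its highest library was 1.53 times its lowest. Sox10 stood at 8318, 29794, 31034 and 38713, so replicate 1 held a fraction of what the other libraries held, and its highest-to-lowest ratio was 4.65. Mbp stood at 80170, 401821, 78977 and 109426, with replicate 2 far above the rest and a ratio of 5.09. Without replicate 1 the ratio of Sox10 was 1.3, and without replicate 2 that of Mbp was 1.39. The lineage markers were thus present in each library, as its label says, while Gfap, the intermediate filament of astrocytes, ranked 11th and 17th in replicates 1 and 2. In bulk RNA such as this, fewer cells of a type and less RNA per cell cannot be told apart.

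The libraries held 41506220, 61803693, 43845904 and 22523873 recovered reads. Of the 32852 genes in the table, 20431 had a read in all 4 libraries and 6215 had none in any. A mean of at least 10 was reached by 18235 genes, of at least 100 by 13765 and of at least 1000 by 7054. Replicates 3 and 4 were the most alike, with 116 of 13765 genes (0.843%) differing at least 2-fold between them, although replicate 4 was the shallowest library. Between the other pairs that count ran from 1127 (8.19%, replicates 1 and 2) to 1805 (13.1%, replicates 1 and 4). The rank correlation over these genes was 0.9911 for replicates 3 and 4 and 0.9324 to 0.9604 for the other pairs, across genes, which are not independent replicates.

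Reads were concentrated in few genes. The 10 most abundant genes took 11.42% of the reads on average, the top 100 took 25.69% and the top 1000 took 52.63%. A total of 855 genes held 50% of the reads and 6252 held 90%. The plot of cumulative read share shows 4 curves of nearly the same shape. Which genes stood at the top was less constant: 8 genes were among the top 10 of every library, 64 among the top 100 and 729 among the top 1000, while 13, 143 and 1302 genes entered those ranks in any library. These are ranks of reads, and a longer transcript gives more reads than a shorter one at the same number of molecules.

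**Figure D1:**
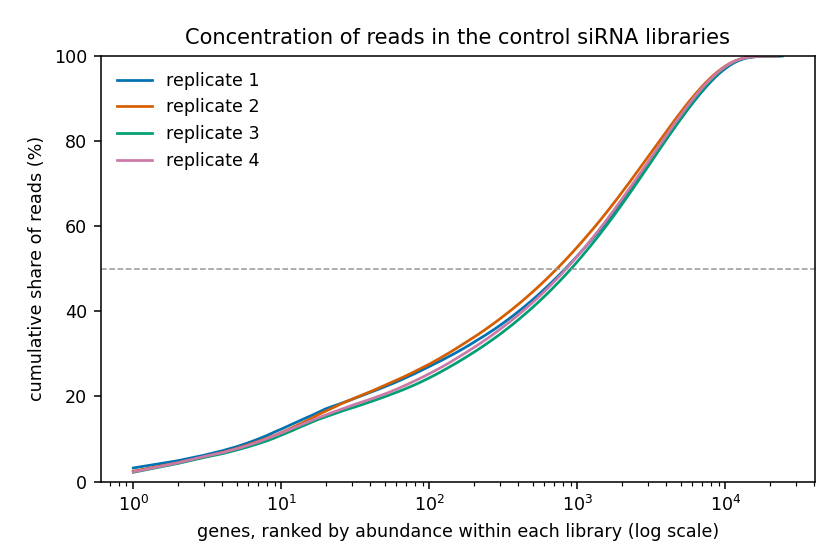
The cumulative share of reads (%) is plotted against gene rank on a log scale, with 1 line for each control siRNA library and a dashed line at 50%. The curves cross 50% between 728 genes (replicate 2) and 908 genes (replicate 3).

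The head of the ranking was made of mitochondrial messages, structural RNAs and a lipid desaturase. Mt-co1, the catalytic subunit of cytochrome c oxidase, took 2.491% ± 0.492 (SD, n = 4) of the reads, at normalised counts of 1271900, 1093540, 825501 and 855125. It was the most abundant gene in replicates 1, 2 and 3. In replicate 4 the first place went to 7SK, the small nuclear RNA that holds back the elongation factor P-TEFb, at 678797, 886679, 782704 and 907294. Scd2, the stearoyl-CoA desaturase of brain that makes monounsaturated fatty acids, came next after 1 gene with a provisional name, at 369721, 604769, 294375 and 342180, and it was the only one of the 12 most abundant genes with established names whose ratio passed 2, at 2.05. When the library total was used as the scale in place of the authors' size factors it was 1.73, and without replicate 2 it was 1.26.

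The other members of that group were steadier. The other mitochondrial messages in it were Mt-cox3, Mt-cyb, Mt-nd4, Mt-nd5, Mt-co2, Mt-nd1 and Mt-atp6. Their ratios ran from 1.13 for Mt-nd1, a subunit of complex I, to 1.56 for Mt-co2, a subunit of complex IV. Rmrp, the RNA of RNase MRP, stood at 196258, 285232, 217038 and 251211. Actb, cytoplasmic beta-actin, stood at 172243, 181366, 215147 and 234089. Rmrp was highest in replicate 2, the deepest library, and Actb in replicate 4, the shallowest.

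Steadiness was measured for each of the 13765 genes with a mean of at least 100 as its highest value plus 1 over its lowest value plus 1. The median ratio was 1.41, and 2523 genes (18.3%) stayed under 1.2. A ratio of at least 2 was reached by 2905 genes (21.1%) and of at least 10 by 139. Without replicate 1, 1642 genes reached 2. After the part due to counting was removed, the median coefficient of variation (CV) was 14.8%. Against counting noise alone, 15496 of 18235 genes with a mean of at least 10 (85.0%) varied at an adjusted p under 0.05 (chi-square test on 3 degrees of freedom, Benjamini-Hochberg). That test sets the 4 libraries against counting alone, and how many genes it calls rises with depth. The share of genes called went from 63.9% at means of 10 to 100 to 100% at means of 10000 and above, where deeper counts resolve smaller differences.

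Steadiness did not simply follow abundance. The share of genes with a ratio of at least 2 was 60.5% at means of 10 to 100, 26.2% at 100 to 1000 and 15.5% at 1000 to 10000. Above that it was higher again, at 25.5% of 553 genes between 10000 and 100000, a band that holds the astrocyte gene Aqp4 and the myelin genes Mag and Cldn11. Among the 25 genes at 100000 or more, which held 17.17% of all reads, 6 passed a ratio of 2. The steadiest band by median CV beyond counting was 1000 to 10000, at 12.8%.

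**Figure D2:**
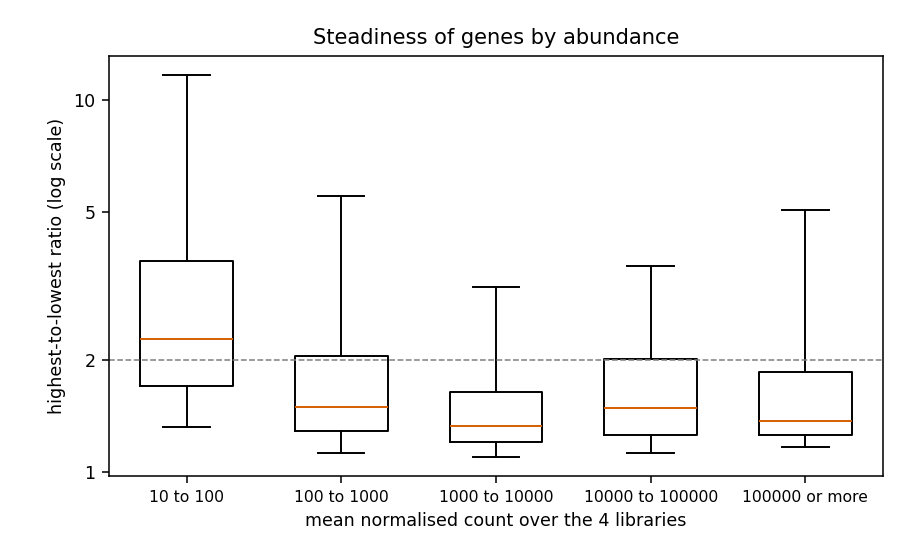
The highest-to-lowest ratio over the 4 libraries (log scale) is drawn for 5 bands of mean normalised count, with the median as a coloured line, boxes from the lower to the upper quartile and whiskers from the 5th to the 95th percentile. The median ratio goes from 2.28 in the lowest band to 1.33 at 1000 to 10000 and is 1.49 in the next band.

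Genes of the myelin sheath held 0.8541%, 3.061%, 1.008% and 1.275% of the reads, a class CV of 66.0%. Replicate 2 was the library above the rest. Of 25 measured members, all with a mean of at least 100, 23 had a ratio of at least 2 beside 21.1% of all genes, and 14 stood at least 2-fold above every other library in replicate 2, where 1.56% of all genes did so. Mag, the myelin-associated glycoprotein that faces the axon, stood at 11934, 67874, 10797 and 15670. Nfasc, which encodes the neurofascins of the axon-glia junction, stood at 47452, 225185, 64277 and 96509. The ratio of Mobp, another basic protein of myelin, was 8.31, at 4965, 25262, 3040 and 3280. Without replicate 2, 7 members reached a ratio of 2. A low member was also highest there: Opalin, a glycoprotein of late oligodendrocytes, stood at 236, 848, 93.1 and 74.5. Gpm6b, a membrane proteolipid that neurons also make, was the steadiest member at 53650, 48722, 36023 and 36623.

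Markers of newly formed oligodendrocytes had their lowest read share in replicate 1. It was 0.2965%, 0.5741%, 0.593% and 0.746%. Of 19 members with a mean of at least 100, 16 had a ratio of at least 2, beside 21.1% of all genes. Gpr17, a receptor that holds cells at the premyelinating stage, stood at 5915, 25917, 25891 and 41839. Bcas1, a marker of cells beginning to myelinate, stood at 15487, 31395, 38541 and 44452. Both were lowest in replicate 1 and highest in replicate 4. Sema5a, a guidance molecule, stood at 20040, 40791, 35121 and 44273, and Tns3, a focal adhesion protein, at 20487, 36517, 29187 and 42898. Of the 19, 10 were highest in replicate 4 and 7 in replicate 2, beside 22.4% and 30.1% of all genes. Enpp6, a choline phosphodiesterase, was among those highest in replicate 2, at 3082, 13711, 3416 and 5068. The RNA-binding protein Samd4a was the steadiest member, with a ratio of 1.33. The 2 members highest in replicate 1 were Samd4a, by a small margin, and Prom1, at 483, 259, 106 and 99.3. Neu4, the other measured gene of the list, was at 0 in every library. Without replicate 1, 6 members of the list reached a ratio of 2 and that of Gpr17 was 1.62, and without replicate 2, 10 members reached it.

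The lineage transcription factors divided in a similar way, with 11 of 22 members at a ratio of at least 2, beside 21.1% of all genes. Without replicate 1, 6 members reached it, and without replicate 2, 7 did. Myrf, the factor that switches on myelin genes, stood at 11417, 45149, 16995 and 26328, highest in replicate 2 as Mbp and Mag were. Sox8, a relative of Sox10, stood at 11733, 18254, 27596 and 30714, and Olig2, the partner of Olig1, at 9854, 13716, 22134 and 22372. For both, replicate 1 was lowest and replicates 3 and 4 were close to each other. Nkx2-2, a repressor that acts early in differentiation, stood at 1025, 1993, 4339 and 4811. The zinc finger gene Zfp24 was steady at a ratio of 1.19, and Zfp536 the least steady at 4.89, with replicate 2 on top.

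Progenitor markers as a class were steady, at 1.379%, 1.251%, 1.282% and 1.241% of the reads and a CV of 4.91%, but their members were not. Of 18, 9 had a ratio of at least 2 in opposite directions (5 without replicate 1), beside 21.1% of all genes. Ncan, a brain proteoglycan, stood at 229135, 233118, 92578 and 112126. Pdgfra stood at 13936, 14570, 39041 and 38097, and Cspg4, the NG2 proteoglycan, at 8691, 6702, 26028 and 20224. The first was high where the other 2 were low, in replicates 1 and 2. Vcan, the proteoglycan versican, stood at 7420, 20653, 31343 and 36137. Ptprz1, a receptor phosphatase shared by progenitors and astrocytes, was the steadiest member at 173180, 144355, 162637 and 149483, and with Ncan it made up much of the class total. The matrix protein Matn4 had the widest ratio, 4.94.

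Genes that hold back differentiation summed to between 0.1859% and 0.2232% of the reads. Of 15 members, 8 had a ratio of at least 2, beside 21.1% of all genes, or 4 without replicate 1. Notch1, the receptor whose signal keeps progenitors immature, was steady at 36439, 37220, 38485 and 47079. Sox9, which marks glial precursors and astrocytes, stood at 20452, 22110, 11376 and 9784. Id2, an inhibitor of helix-loop-helix factors, stood at 11611, 12054, 6262 and 7543, and both genes were higher in replicates 1 and 2 than in replicates 3 and 4. Axin2, a feedback gene of Wnt signalling, was the steadiest at 1.1, and Gpr37, a receptor that oligodendrocytes carry late in differentiation, the least steady at 6.17 with 5673 in replicate 2.

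Promoter windows are shown for 5 genes whose levels describe the range of behaviour in these cultures: a myelin gene highest in replicate 2 (Mobp), the leading astrocyte gene (Gfap), a gene highest in replicate 1 (Spp1), an abundant steady translation factor (Eef1a1) and a steady chaperone (Hspa5). Each line is the 250 bases before the gene's start from RefSeq, build GRCr8, 5′ to 3′ on the gene's strand, with any match to the motif TATAAA, the motif GGGCGG or the motif CCAAT on either strand in capitals. They lie at chr8:128746982-128747231 (+ strand), chr10:88361662-88361911 (- strand), chr14:5619805-5620054 (- strand), chr8:88225070-88225319 (- strand) and chr3:38452766-38453015 (+ strand), in that order. No factor binding was measured in these libraries.
Mobp: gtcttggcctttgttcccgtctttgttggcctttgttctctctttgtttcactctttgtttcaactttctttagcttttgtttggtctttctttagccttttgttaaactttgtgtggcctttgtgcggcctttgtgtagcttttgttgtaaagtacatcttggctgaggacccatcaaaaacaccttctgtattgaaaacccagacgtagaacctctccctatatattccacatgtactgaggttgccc
Gfap: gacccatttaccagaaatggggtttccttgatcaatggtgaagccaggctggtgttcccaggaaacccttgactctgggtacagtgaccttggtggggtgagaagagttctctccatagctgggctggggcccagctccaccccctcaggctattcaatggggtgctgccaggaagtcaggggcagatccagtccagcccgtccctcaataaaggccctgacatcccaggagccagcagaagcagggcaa
Spp1: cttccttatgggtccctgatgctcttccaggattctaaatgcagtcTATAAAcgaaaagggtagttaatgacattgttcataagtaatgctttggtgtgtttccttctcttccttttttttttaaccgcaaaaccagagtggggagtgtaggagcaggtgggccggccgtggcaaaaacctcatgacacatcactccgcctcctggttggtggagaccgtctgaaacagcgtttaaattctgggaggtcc
Eef1a1: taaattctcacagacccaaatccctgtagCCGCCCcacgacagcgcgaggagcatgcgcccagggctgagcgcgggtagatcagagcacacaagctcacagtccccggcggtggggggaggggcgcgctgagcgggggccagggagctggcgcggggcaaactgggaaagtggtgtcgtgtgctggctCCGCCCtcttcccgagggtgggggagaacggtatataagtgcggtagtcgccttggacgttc
Hspa5: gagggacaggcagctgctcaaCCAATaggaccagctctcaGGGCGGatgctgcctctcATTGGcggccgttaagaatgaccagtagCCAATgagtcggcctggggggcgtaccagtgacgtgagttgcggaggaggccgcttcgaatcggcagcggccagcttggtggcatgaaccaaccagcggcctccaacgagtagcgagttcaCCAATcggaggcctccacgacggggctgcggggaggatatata

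The window of Hspa5 holds 4 matches to CCAAT and 18 CG dinucleotides, that of Eef1a1 2 matches to GGGCGG and 21 CG dinucleotides. Mobp and Gfap have no match in the bases shown and 3 and 1 CG dinucleotides, and Spp1 has 1 TATAAA and 7. The counts that follow used the full RefSeq window, from 250 bases before to 50 after the start, and 12485 genes of the table matched an entry with a unique symbol. CG dinucleotides were more frequent at the promoters of expressed genes: the median was 3 for genes with a mean under 1, 19 at means of 100 to 1000 and 25 at means of 10000 or more. TATAAA was found in 26.6% of promoters of genes with a mean under 1, in 5.38% at means of 1000 to 10000, in 9.32% at means of 10000 or more and in 14.3% of all 24206 RefSeq windows. Among genes with a mean of at least 100 it was found in 4.81% of those with a ratio under 1.2 and in 9.21% of those with a ratio of at least 2. A match is a description of letters, not a binding site, and CCAAT and GGGCGG can share bases where they abut.

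CCAAT, which 37.5% of the matched genes and 37.8% of all RefSeq windows hold, spread more widely between gene lists than between abundance bands. The lists hold far fewer promoters than the bands, so a wider spread is expected from sampling. The lists named here are among those with the highest or lowest shares. CCAAT was found at 16 of 16 promoters of endoplasmic reticulum (ER) chaperones, at 14 of 18 of cholesterol synthesis, at 15 of 20 of cell cycle genes, but at 14 of 59 of cytosolic ribosomal proteins. GGGCGG was found at 16 of 18 promoters of cholesterol synthesis and 2 of 12 of microglia markers, beside 54.0% of the matched genes of the table and 35.9% of all windows. TATAAA was found at 9 of 16 histone promoters and 7 of 14 of inflammatory genes, beside 9.61% of the matched genes.

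Cholesterol is the main sterol of myelin and is made by the oligodendrocytes themselves. The synthesis genes took 0.54%, 0.4394%, 0.7544% and 0.6279% of the reads and were steadier than the myelin genes. Of 24 members, 2 had a ratio of at least 2, beside 21.1% of all genes: Msmo1 at 2.01 and Hsd17b7 at 2.2. None did without replicate 2 or without replicate 3. Replicate 3 was the highest library for 20 of the 24, beside 22.0% of all genes, and for 21 when scaled by library totals. Hmgcs1, which makes HMG-CoA, stood at 45054, 34694, 64637 and 57227, with a ratio of 1.86 that became 2.21 when scaled by library totals. Cyp51, the lanosterol demethylase, stood at 17064, 13877, 21556 and 19704. Both were lowest in replicate 2, where the myelin genes were highest. The transcription factor of the pathway, Srebf2, was its steadiest gene at 1.23.

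Fatty acid genes were led by Scd2 and took 1.42%, 1.879%, 1.308% and 1.34% of the reads. Of 14 members, 5 had a ratio of at least 2 (3 without replicate 1), beside 21.1% of all genes. Fasn, fatty acid synthase, stood at 43437, 71851, 55488 and 51766, highest in replicate 2 as Scd2 was. Fads1, a desaturase of polyunsaturated fatty acids, stood at 44587, 46220, 26770 and 28477. Srebf1, the factor that drives the pathway, was the least steady member at 8099, 13696, 2485 and 2835, a ratio of 5.51. Among the sphingolipid and galactolipid genes, 5 of 19 (26.3%, beside 21.1% of all genes) passed the ratio, 3 without replicate 1 and 2 without replicate 2. Ugt8, which makes galactosylceramide for myelin, was one of them at 13714, 48273, 23123 and 27249, also highest in replicate 2. The ceramide synthases were steadier: Cers2 stood at 6974, 12780, 7155 and 8122, and Cers4 had a ratio of 1.12.

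**Figure D3:**
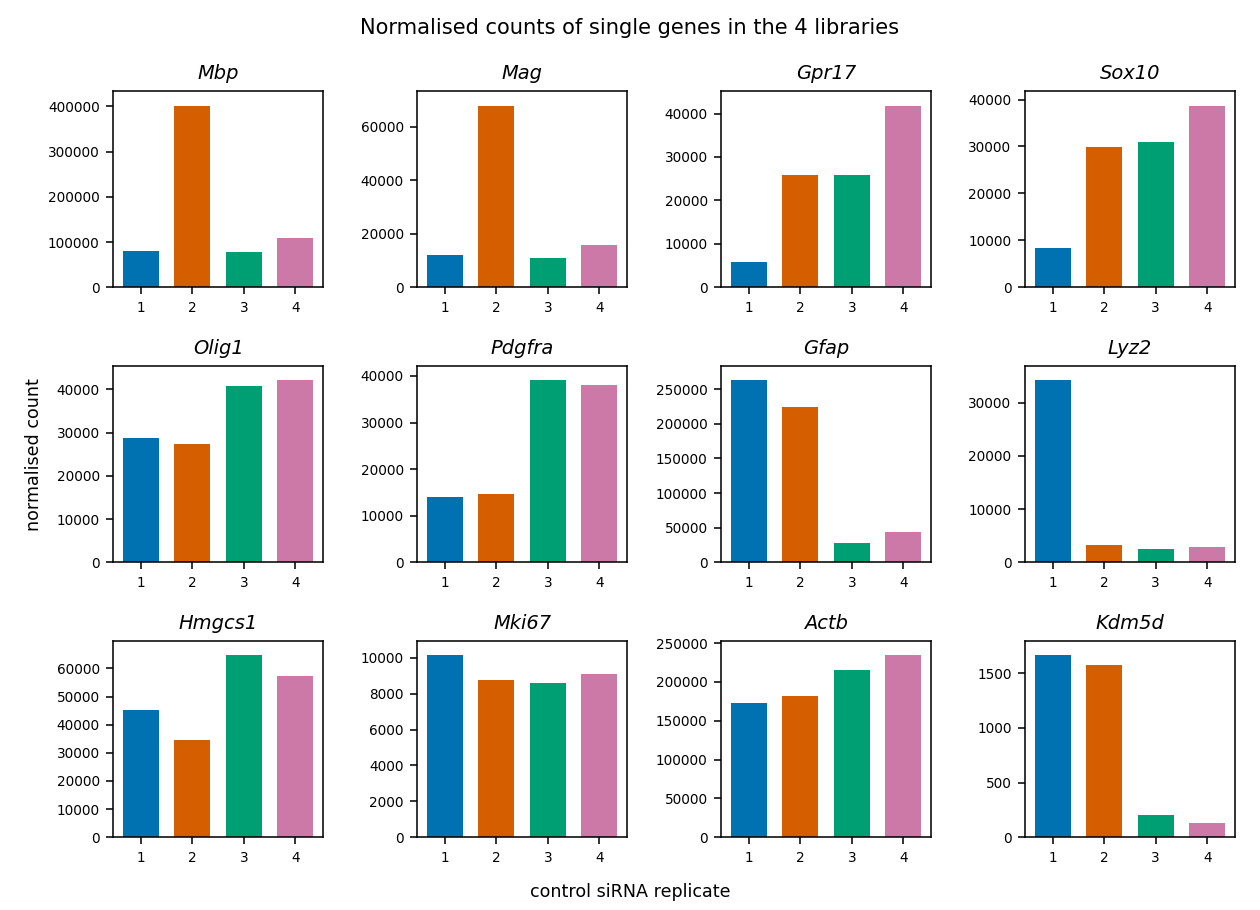
Bars give the normalised count of 12 genes in control siRNA replicates 1 to 4, 1 bar for each library and with each axis starting at 0. Mbp and Mag are highest in replicate 2, Gpr17 and Sox10 lowest in replicate 1, Gfap and Kdm5d low in replicates 3 and 4, and Lyz2 high in replicate 1, while Mki67 and Actb stay within a ratio of 1.36.

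Markers of other cell types were present in all 4 libraries, and many of their members passed the ratio of 2. The astrocyte list took 2.626%, 2.201%, 0.8527% and 0.8512% of the reads, more than the myelin list in replicate 1 and less in replicates 2, 3 and 4. Of its 19 members with a mean of at least 100, 17 had a ratio of at least 2, beside 21.1% of all genes. Gfap stood at 262591, 224537, 27204 and 44392, a ratio of 9.65. Aqp4, the water channel of astrocyte endfeet, stood at 89062, 108704, 27671 and 27960, and Atp1b2, a sodium pump subunit, at 135900, 110495, 59633 and 59552. Each of these 3 genes was higher in replicates 1 and 2 than in replicates 3 and 4, but Fgfr3 of the list overlapped, at 2712, 2253, 1638 and 2475. How many of all genes split this way was not counted. The main axis of variation over all 13765 genes (65.4% of the variance) also set replicates 1 and 2 apart from replicates 3 and 4. Aldoc, a glycolytic enzyme of astrocytes, was the steadiest at 20623, 15437, 12904 and 13128.

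Microglia and macrophage markers summed to 0.1635%, 0.03396%, 0.02107% and 0.02246% of the reads, with a class CV of 115%. Of the 17 members with a mean of at least 100, 15 had a ratio of at least 2, beside 21.1% of all genes. In replicate 1, 13 stood at least 2-fold above every other library, where 2.53% of all genes did so. Without replicate 1, 8 members reached a ratio of 2 and that of Lyz2 was 1.24. Lyz2, the lysozyme of macrophages, stood at 34187, 3157, 2544 and 2913. Cd68, a lysosomal protein of phagocytes, stood at 5493, 2083, 724 and 919, and Csf1r, the receptor microglia need to survive, at 3228, 1049, 315 and 436. Replicate 2 lay between replicate 1 and the others for all 3. Replicate 1 also had the lowest Sox10 and Gpr17, and the part of other cells in those values was not tested. None of the 19 measured markers was at 0 in every library. C1qb, a complement subunit, had the widest ratio of the list, at 277, 140, 6.90 and 19.5.

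The remaining cell type lists were low. Neuron markers took 0.08779% to 0.1322% of the reads, of which Map2, a microtubule protein that the oligodendrocyte lineage also makes, gave 55.7%, at 23613, 21359, 27858 and 25204. Dcx, a microtubule protein of migrating cells, stood at 4362, 9259, 9519 and 10073, and Gap43, a growth cone protein, at 923, 1112, 3045 and 2712. Of 16 neuron markers with a mean of at least 100, 14 had a ratio of at least 2, beside 21.1% of all genes. That count was 8 without replicate 1 and 6 without replicate 2. Replicate 2 was highest for 7 of the 16, replicate 3 for 5 and replicate 4 for 4, beside 30.1%, 22.0% and 22.4% of all genes. Among the 7 were Gad1, at 411, 1304, 505 and 546, and Elavl3, at 930, 3146, 1603 and 1740. Vascular and pericyte markers took 0.01017% to 0.01705%. The endothelial gene Cldn5 was at 0 in every library, which allows up to 3 reads in each. It was the only 1 of 16 measured members at 0. Flt1 and Kdr of the same list were read in every library, at 309, 58.8, 91.4 and 83.4 and at 103, 145, 96.5 and 158. Fibroblast and meningeal markers took 0.03265%, 0.01467%, 0.01649% and 0.01312%. Their members Col1a1, at 1782, 157, 551 and 534, and Col3a1, at 1241, 42.1, 166 and 58.5, were highest in replicate 1. Ependymal and choroid plexus markers took at most 0.003306% of the reads, in replicate 1. The Schwann cell list was steady in sum, at a CV of 4.16%, and was led by Sox2 and Pmp22, which central glia also express. Its members were less so: of 8 with a mean of at least 100, 5 had a ratio of at least 2, beside 21.1% of all genes. None did without replicate 1. Egr2 was the least steady of them, at 338, 63.1, 54.3 and 44.4.

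Interferon response genes took 0.1518%, 0.1569%, 0.05905% and 0.05777% of the reads. Of these 22 genes, 16 had a ratio of at least 2, beside 21.1% of all genes. B2m, the light chain of class I histocompatibility molecules, stood at 28933, 31602, 11414 and 11249. Mx2, an antiviral GTPase, stood at 7659, 10630, 1937 and 2005, and Oas1a, a sensor of double-stranded RNA, at 917, 1115, 44 and 44.4. All 3 were high in replicates 1 and 2, as the astrocyte markers were, and the part of cell composition in this was not tested. Psmb8, an immunoproteasome subunit, was steady at 1.21.

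Inflammatory genes passed the ratio in 8 of 9 members, beside 21.1% of all genes, and in 4 without replicate 1. Vcam1, an adhesion molecule, stood at 5875, 7431, 2380 and 2837, C3, a complement protein, at 2988, 1334, 398 and 495, and Ccl2, a chemokine that attracts monocytes, at 1388, 227, 122 and 110. The last of these was high in replicate 1 only, where the microglia markers were highest. Genes of the integrated stress response took 0.2181%, 0.2219%, 0.1217% and 0.121% of the reads. Of the 20 members of this response, 11 had a ratio of at least 2, 5 without replicate 1 and 7 without replicate 2. Slc7a11, the cystine transporter, was its most abundant member and stood at 30610, 34740, 3246 and 3094. Atf4, the factor that drives the response, was its steadiest member at 5783, 4872, 5153 and 5210, and Slc3a2 and Slc7a5, amino acid transporter subunits, stayed under 2 at 1.8 and 1.99, the latter at 2.01 after TMM scaling. Immediate early genes passed the ratio in 14 of 19 members, beside 21.1% of all genes, and in 7 without replicate 1. Myc, a growth factor-induced regulator, stood at 3322, 1952, 4289 and 4518, Jun at 4028, 3856, 1901 and 2072, and Egr1 at 4428, 2493, 1555 and 1151. Of the 19 members 13 were highest in replicate 1, Myc not among them, beside 25.4% of all genes. At least 2-fold above every other library there were 5, beside 2.53% of all genes.

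Against these, the genes of cell division and protein folding were steady. None of the 26 measured cell cycle genes reached a ratio of 2, beside 21.1% of all genes. Mki67, the proliferation antigen, stood at 10135, 8784, 8599 and 9119, Top2a, the topoisomerase of dividing cells, at 3784, 3973, 3675 and 3983, and Pcna, the replication clamp, at 2538, 2592, 2548 and 2510, a ratio of 1.03. These genes stayed within a ratio of 2 in libraries in which Mbp differed 5.09-fold. The least steady member was Rrm2, a subunit of ribonucleotide reductase, at 1.65. ER chaperones behaved alike, with 0 of 20 at a ratio of 2. Canx, calnexin, stood at 37057, 47732, 42637 and 45209, and Hspa5, the chaperone BiP, at 6922, 9289, 8519 and 8180. Of 16 p53 targets, 4 passed the ratio, beside 21.1% of all genes, and 2 did without replicate 4. Mdm2, which degrades p53, was steady at 1.16 and Plk3, a stress kinase, was widest at 3.24.

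Genes used as references had a median ratio of 1.28, beside 1.41 for all genes. Of 23, 1 had a ratio of at least 2, beside 21.1% of all genes. That gene was B2m, at 2.81. Gapdh stood at 45058, 50033, 38009 and 43989, Eef1a1 at 145759, 145046, 176059 and 188123, and Actr3, a subunit of the actin-nucleating complex, was the steadiest at 6688, 5863, 6665 and 6752. Eef1a1 and Actb were both highest in replicate 4. Of glycolysis genes, 3 of 19 (15.8%, beside 21.1% of all genes) passed the ratio, 0 without replicate 2. Eno2, the neuronal enolase, was the least steady at 4.22, and Hk1, the brain hexokinase, the steadiest at 1.1.

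Few genes of large protein complexes passed the ratio, which 21.1% of all genes did. No member of the proteasome (38), the mitochondrial ribosome (75) or the hnRNP proteins (20) reached a ratio of 2. Nuclear genes of the respiratory chain passed it in 1 of 75 (0 without replicate 2 or replicate 4), translation factors in 1 of 55, which was Eif2s3y, and cytosolic ribosomal proteins in 2 of 79 (0 without replicate 1). Class CVs are of shares of the library total and depend on that scale. By the authors' normalised counts 9 of 17 vacuolar proton pump genes were highest in replicate 2, and 5 were when scaled by library totals. On shares, the vacuolar proton pump had the lowest class CV, 1.35%, at 0.163%, 0.1642%, 0.1653% and 0.1682% of the reads. Nuclear respiratory chain genes followed at a CV of 2.3%, whereas the 13 messages of the mitochondrial genome, which supply subunits of the same complexes, took 9.541%, 7.704%, 7.549% and 7.817%, with replicate 1 on top. Mt-atp8, a small subunit of the ATP synthase, was the only 1 of those 13 with a ratio of at least 2, at 2.08, or 1.98 when scaled by library totals, and none had one without replicate 1 or without replicate 3. Ribosomal protein genes took 0.7882%, 0.7205%, 1.04% and 1.019% of the reads. Of the 79, 55 were highest in replicate 4 and 20 in replicate 3 by the deposited values, beside 22.4% and 22.0% of all genes. When scaled by library totals they were 21 and 56, so which of these libraries was higher depended on the scaling.

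**Figure D4:**
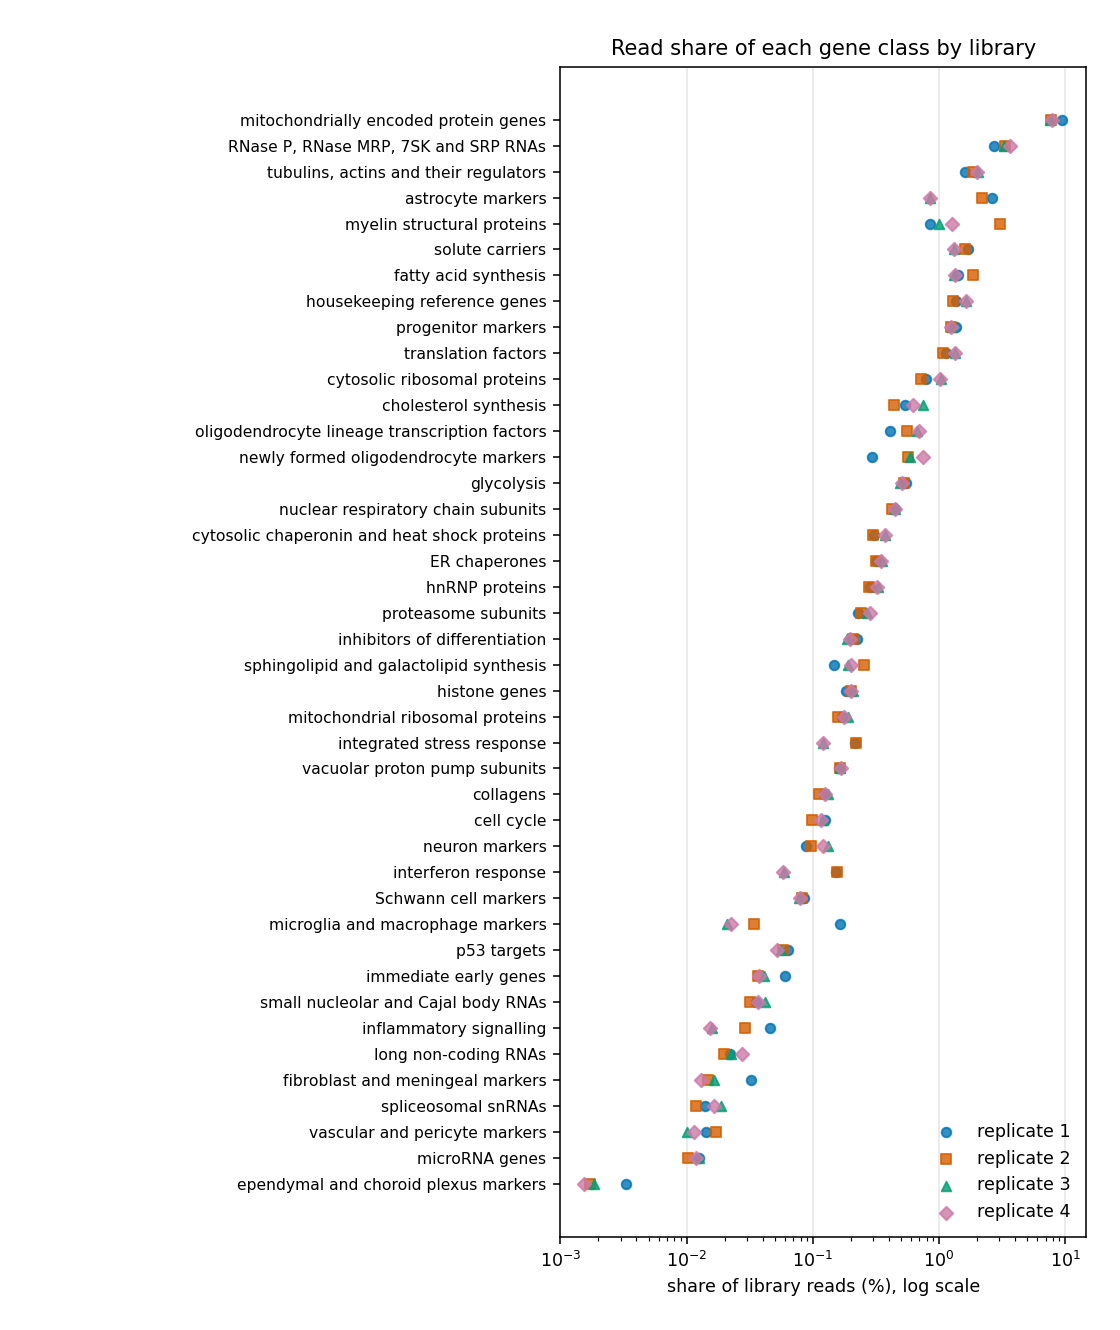
The share of library reads (%, log scale) is given for each gene class, with 1 marker for each control siRNA library and classes ordered by their mean. The microglia, astrocyte and myelin rows spread widest, and the vacuolar proton pump and nuclear respiratory chain rows have markers that overlap.

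A class total can be steady while its members are not. Collagens summed to 0.1237%, 0.1131%, 0.1312% and 0.1259% of the reads, a CV of 6.14%. Yet 20 of 26 members had a ratio of at least 2, beside 21.1% of all genes, and 11 did without replicate 1. Col11a2 stood at 6905, 20330, 7106 and 10181, Col11a1 at 3973, 3634, 10724 and 10289, and Col12a1 at 11518, 8454, 4839 and 4270. Each of these 3 fibril-associated or fibrillar chains was highest in a different library. Tubulins, actins and their regulators passed the ratio in 12 of 27 members, beside 21.1% of all genes. Without replicate 1, 7 members did, and without replicate 2, 6 did. Tuba1a, the main neural alpha-tubulin, stood at 69724, 111235, 129877 and 123286. Tubb4a, the beta-tubulin of myelinating cells, stood at 15930, 60320, 22203 and 27623, highest in replicate 2 as Mbp was. Pfn1, profilin, was the steadiest of them at 1.2, and Tuba1c the least steady at 5.54. Of 231 solute carriers with a mean of at least 100, 67 (29.0%, beside 21.1% of all genes) passed the ratio, 43 without replicate 1.

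**Figure D5:**
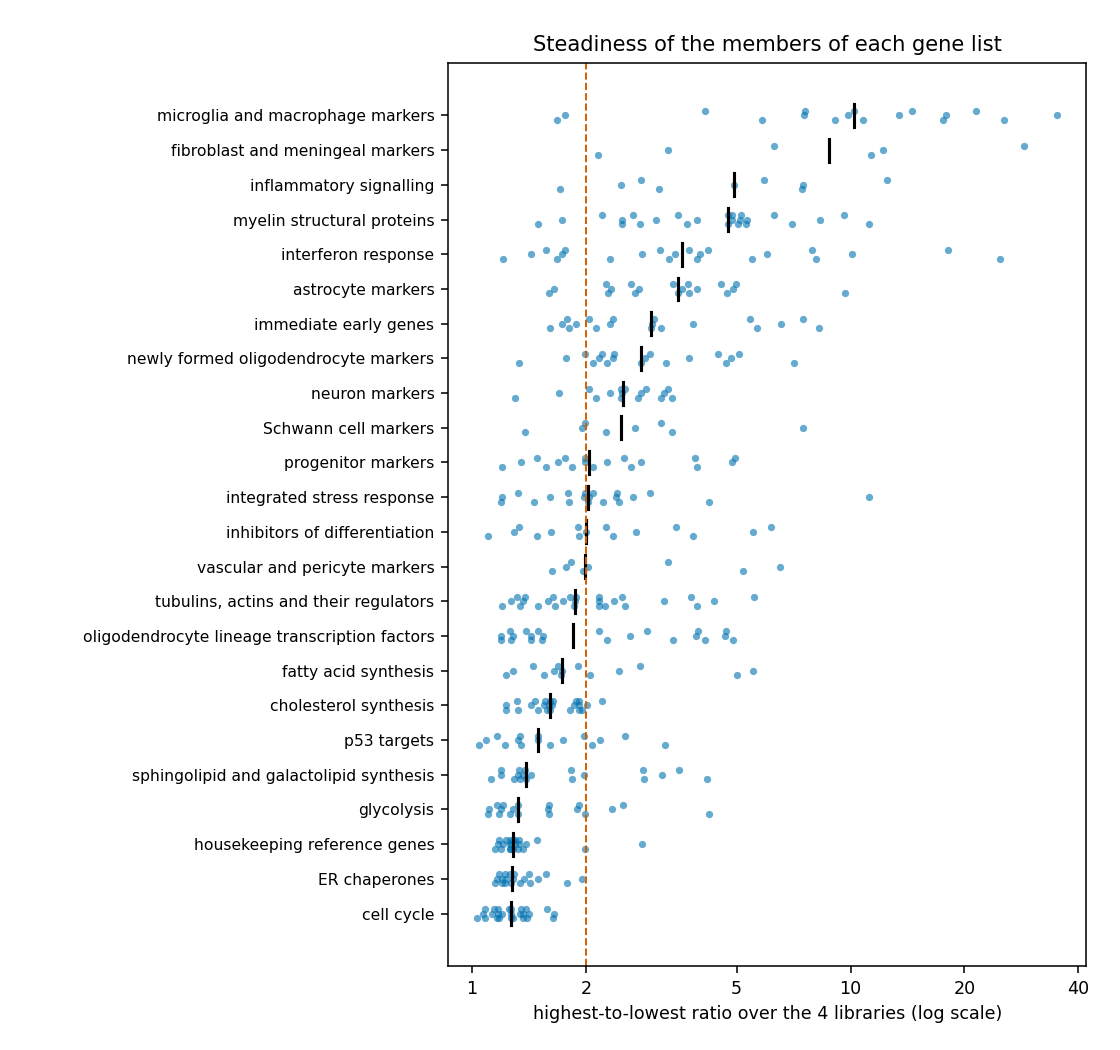
Each point is a member of a gene list whose mean over the libraries is 100 normalised counts or more; its highest-to-lowest ratio over the 4 libraries is on a log axis, the black bar is the list median and the dashed line marks 2. Lists of cell cycle, ER chaperone and reference genes lie mostly left of the line, and those of myelin, astrocyte, microglia and interferon genes mostly right of it.

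RNA other than messages was read in part. The RNAs of RNase P, RNase MRP, 7SK and the signal recognition particle took 2.731%, 3.364%, 3.28% and 3.636% of the reads, of which 7SK gave 61.7%. Rn7sl1, the RNA of the signal recognition particle, stood at 80526, 141213, 97379 and 121427. Copies of these RNAs are near-identical, so how reads divided between them is uncertain. Tug1, a long non-coding RNA, stood at 6724, 8037, 7210 and 10013, and Pvt1, which neighbours Myc, at 1903, 708, 1070 and 875. Small nucleolar RNAs, spliceosomal RNAs and microRNA genes took under 0.05% each, and reads over a microRNA gene in such libraries are not its mature form. Genes with provisional names numbered 9636 and held 7.069%, 6.26%, 7.831% and 7.155% of the reads.

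The steadiest single genes with a mean of at least 1000 were picked by their CV beyond counting, which was 0, the floor of that estimate. It was taken on the authors' normalised counts. Smurf2, a ubiquitin ligase of the TGF-beta pathway, stood at 2175, 2141, 2186 and 2177. Ltbp4, a binding protein of latent TGF-beta, stood at 6936, 6930, 7076 and 7007. As shares of the library total both varied more: Smurf2 took 0.00537% ± 0.0004262 of the reads and Ltbp4 0.01729% ± 0.001357 (SD, n = 4). The other 8 were Rnf139, Srd5a3, Car11, Ttc4, Ube3c, Paics, Atad5 and Nrbp1, and all 10 had ratios of 1.02 or 1.03. They include ubiquitin ligases (Rnf139, Ube3c), a purine synthesis enzyme (Paics) and a replication clamp unloader (Atad5).

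The least steady genes at that level were of several kinds. Vgf, a secreted neuropeptide precursor, led with a ratio of 24.2, at 764, 200, 4868 and 2862, highest in replicate 3 and lowest in replicate 2. Igfbp5, which binds insulin-like growth factors, stood at 37804, 146456, 7270 and 8858. Spp1, osteopontin, stood at 41744, 4194, 2591 and 2498, with replicate 1 alone on top. A2m, a protease inhibitor of reactive astrocytes, stood at 7087, 5365, 483 and 899, and Sulf1, a heparan sulfatase, at 2627, 1628, 150 and 163. Acan, the proteoglycan aggrecan, went the other way at 132, 822, 1355 and 1717. The remaining members of these 10 were Tnxb, Dct, Aebp1 and Lyz2, with ratios from 13.4 to 17.7.

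Single libraries stood apart to unequal degrees. At least 2-fold above every other library were 348 genes in replicate 1 (2.53%) and 215 in replicate 2 (1.56%), against 7 in replicate 3 and 7 in replicate 4. In replicate 1 the farthest were Lyz2, Spp1, Lilrb4, an inhibitory receptor of myeloid cells, at 4946, 901, 437 and 488, and Cybb, the phagocyte oxidase, at 5670, 1033, 763 and 683. In replicate 2 they were Kndc1, Serpinf1, Dct and Mobp; Kndc1, a guanine nucleotide exchange factor, stood at 2141, 15011, 1544 and 2001. Fgl2, Spry4, Nwd2 and Vgf led replicate 3 by less: Spry4, a feedback inhibitor of receptor tyrosine kinases, stood at 2735, 1207, 4692 and 2402. Gpr17, Lims2, Afap1l2 and Cdk2 led replicate 4, where Lims2, an adhesion adaptor, stood at 2105, 9041, 8877 and 14167.

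Genes of the Y chromosome also differed between the libraries. Kdm5d, a histone demethylase, stood at 1664, 1574, 202 and 133, and Eif2s3y, a subunit of an initiation factor, at 1430, 1117, 117 and 190. The labels give no sex for these animals. Kdm5c, the X-linked relative of Kdm5d, stood at 6161, 8052, 9971 and 9798. The gene labelled Usp9y was steady at 1250, 1004, 1228 and 1002, and Ddx3y was at 5.74 or less. Kdm5d and Eif2s3y were high in replicates 1 and 2, the libraries that also held more astrocyte and interferon transcripts, and the part of the animals' sex in those differences was not tested.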

How the data were processed

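Per the labels' protocols, total RNA with integrity numbers of 9 to 10 went into directional paired-end libraries after removal of ribosomal RNA. Salmon, DESeq2 and Rnor_6.0 are named, without versions, in the submitters' processing notes. Per the file headers, the authors' table gives for each gene and library a normalised count (a signal scaled by 1 size factor per library, set over all 7 libraries). Within a library, 100% of the values were whole multiples of a common step (to within 0.01 of it), and dividing by the step recovered the reads. The sources used here do not say how reads of near-identical genes were divided.

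From these values, read shares, ratios (pseudocount 1, minimum mean 100) and the CV beyond Poisson counting were computed with Python 3.11.15, pandas 2.3.3 and scipy 1.17.1. Dispersion and TMM factors came from R 4.3.3 with edgeR 4.0.16 on the recovered reads. The CV estimate was tested on simulated data. No groups were compared. Counting error on class read shares (95% Wilson intervals) was smaller than the SD between libraries for 43 of 43 classes. Intervals and limits cover counting error only.

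The 44 gene lists (27 by name, 17 by symbol pattern) and the libraries were chosen with earlier results of these data known, and the pattern for provisional names was widened after the table was seen. The pattern for mitochondrial rRNAs and tRNAs matched no gene. Named by rule were Mbp, Sox10 and Olig1, the 12 genes of largest read share, the 10 steadiest and 10 least steady genes with a mean of at least 1000, the 4 genes farthest above the next library in each library, and in each list the 3 highest, the steadiest and the least steady member. Provisional names were counted, not named, and some genes chosen by this rule are left out of the text. Other genes named, such as Pdgfra, Csf1r, Kdm5d and the 3 collagens, were chosen after their values were seen. Levels per coding kilobase were planned, but coding lengths were not used here, so levels of different genes are not compared per length. Of the table's 32852 identifiers, 17384 had a symbol in the RefSeq table (GRCr8). RefSeq served for promoters and for sorting genes by type, and only the promoters are reported here.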

Additional observations from a re-analysis of the deposited data

Results flagged for a closer look

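A value was singled out where 1 of the 4 libraries lay far from the others, that is where its gap to the nearest library, as a part of the whole range, exceeded Dixon's 95% critical value for 4 samples. Chance alone gives about 5% of such values, and 851 of all 13765 genes with a mean of at least 100 (6.18%) exceeded it. Of 43 gene classes 4 did. The genes below were named in part because they stood apart in 1 library, so their number is not to be read against that share. None of those values had replicate 3 or 4 as the library apart.

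Among classes, the read share of microglia and macrophage markers (gap 0.909), of ependymal and choroid plexus markers (0.831) and of mitochondrially encoded messages (0.865) was high in replicate 1. That of nuclear respiratory chain subunits (0.846) was low in replicate 2, at 0.4273% beside 0.4462% to 0.4496% elsewhere. This holds for shares of the library total. By the authors' normalised counts 48 of its 75 members were highest in replicate 2, beside 30.1% of all genes, and 7 were when scaled by library totals.

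Genes high in replicate 1 were Lyz2 (gap 0.981), Spp1 (0.957), Cybb (0.93), Ccl2 (0.908), Lilrb4 (0.897), Col3a1 (0.896) and Ddx3y (0.85, at a normalised count of 5.74 or less). Dcx was low there (0.857).

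Genes high in replicate 2 included the myelin genes Mag (gap 0.915), Mobp (0.913) and Mbp (0.906), with Kndc1 (0.956), Serpinf1 (0.92), Dct (0.888), Gpr37 (0.879) and Hk1 (0.853). Low there were Samd4a (0.987), Pfn1 (0.904) and Actr3 (0.902), all of which had ratios under 1.5.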

How the results depend on the processing

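The count of genes with a ratio of at least 2 (2905) was 2897 with size factors of the control libraries alone, 2961 when scaled by library totals and 2899 after TMM. It was 5608 at a minimum mean of 10, 1148 at 1000, 11741 with no minimum and 5729 at a ratio of 1.5, each of which changes the genes tested or the threshold. When 1 library was left out it ran from 1642 (without replicate 1) to 2683 (without replicate 4). Among members of the named gene lists the count was 201, and 122 (without replicate 1) to 191 (without replicate 4) when 1 library was left out, where fewer libraries also give a narrower range. The median CV beyond counting (14.8%) was 12.3% to 15.8% with 1 library left out, but 26.9% as edgeR's trended dispersion, and the cause was not tested. The number of genes holding 50% of the reads (855) ranged from 827 to 884, and genes varying beyond counting from 13323 to 15507. Of 143 genes named, 22 went from a ratio of at least 2 to one under 2 when replicate 1 was left out, and 18 when replicate 2 was. Levels per coding kilobase were not run. No paired analysis was possible because 1 group was described and no groups were compared. Genes with a mean under 10 are limited by depth.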
